A study of Mus musculus with 8 samples.

Results

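The genes described here are 10 dual-specificity phosphatases that shut off MAP kinases or nearby steps of the same signals: Dusp1, Dusp2, Dusp4, Dusp5, Dusp6, Dusp7, Dusp10, Dusp14, Dusp16 and Dusp22. They were found by symbol. A probe set, the group of short probes that reports on a transcript, was used where the platform's annotation gave it exactly 1 gene symbol, and where a gene had several, the probe set with the highest mean over the 8 arrays was kept. All 10 genes had a probe set, out of 22180 genes found in this way, and Dusp6 had 2. Testing was limited to genes with a mean log2 level of at least 3.90, the 40th percentile. That filter kept 13308 genes, among them 9 of the 10 phosphatases, and left out Dusp16.

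The samples were CD4+ T cells from a transfer model of colitis, in which CD4+CD62L+ cells placed in mice without lymphocytes expand and cause inflammation of the gut. The wt cells carried the CD45.1 form of CD45 and the Irak1-/- cells the CD45.2 form, and both were injected together into Rag1-/- recipients. CD3+ CD4+ cells of each form were sorted from mesenteric lymph nodes 14 days later, and 4 experiments with 2 pooled recipients each gave 4 wt and 4 Irak1-/- arrays, hence 4 pairs that shared recipients and a batch. All arrays carry the strain label C57BL/6, while the sources used here do not give the age of the mice. IRAK1 is a kinase that relays signals of IL-1 family and Toll-like receptors. Rag1-/- recipients lack T and B cells of their own but keep myeloid and NK cells. Genotype and CD45 form changed together in every pair, so their effects cannot be told apart. None of the 10 genes lies within 10 Mb of Irak1 or of Ptprc, the CD45 gene.

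MAP kinases are switched on by phosphorylation of a threonine and a tyrosine, and dual-specificity phosphatases remove both. In T cells the antigen receptor drives ERK, while cytokine and stress signals drive JNK and p38 more strongly. Several of these phosphatases are themselves products of early response genes, so that a MAP kinase signal raises its own inhibitor. DUSP1, DUSP2, DUSP4 and DUSP5 work in the nucleus and are induced by signals, DUSP6 and DUSP7 hold ERK in check in the cytoplasm, and DUSP10 and DUSP16 act mainly on JNK and p38. DUSP14 and DUSP22 are small atypical members that dampen T cell receptor signalling.

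The stretches before the gene starts of Dusp1, Dusp2 and Dusp5 are shown because these are the signal-induced nuclear members with lower mean levels on the Irak1-/- arrays. None of these differences was called (limma adjusted p = 0.739 to 0.864), and a link between the motifs and the levels was not tested. Each run holds the 250 bases before the start in the RefSeq annotation of GRCm38.p6, 5′ to 3′ on the gene's strand. Capitals mark matches to the CRE core TGACG, the CArG box of serum response factor, the AP-1 motif TGANTCA, the ETS core CCGGAA and the kappaB site of NF-kappaB, searched on both strands.
Dusp1, chr17:26508473-26508722, minus strand: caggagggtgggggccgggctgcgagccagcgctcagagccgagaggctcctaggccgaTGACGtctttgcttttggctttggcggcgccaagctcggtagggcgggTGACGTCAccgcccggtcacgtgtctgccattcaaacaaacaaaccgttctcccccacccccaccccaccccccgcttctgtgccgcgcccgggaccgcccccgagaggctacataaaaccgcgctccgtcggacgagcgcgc
Dusp2, chr2:127335909-127336158, plus strand: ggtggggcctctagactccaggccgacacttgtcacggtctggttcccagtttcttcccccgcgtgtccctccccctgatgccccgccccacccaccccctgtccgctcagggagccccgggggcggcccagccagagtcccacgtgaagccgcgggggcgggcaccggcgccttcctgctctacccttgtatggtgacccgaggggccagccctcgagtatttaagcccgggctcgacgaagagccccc
Dusp5, chr19:53528895-53529144, plus strand: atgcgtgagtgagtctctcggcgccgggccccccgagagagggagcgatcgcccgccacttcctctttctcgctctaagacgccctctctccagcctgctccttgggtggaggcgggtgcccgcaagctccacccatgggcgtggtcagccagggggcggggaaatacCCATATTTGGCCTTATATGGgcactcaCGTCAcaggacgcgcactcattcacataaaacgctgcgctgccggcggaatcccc
The Dusp1 stretch held the full cAMP response element TGACGTCA, which begins 143 bases before the start and contains the core on both strands, and a further TGACG at 191 bases. The Dusp5 stretch held 2 CArG boxes, at 82 and 72 bases, and the core on the opposite strand at 55 bases. The Dusp2 stretch held none of the motifs set in capitals, and only an E-box, CACGTG, at 109 bases. A stretch of sequence before the start was available for 9 of the 10 genes, and the missing one was Dusp4. The full element TGACGTCA was in 1 of the 9 stretches and in 1.55% of 32851 stretches of the same length before all starts in the RefSeq table. The CArG box was in 1 of 9 and 1.47%, the core TGACG in 3 of 9 (Dusp1, Dusp5 and Dusp16) and 17.8%, and the ETS core in 1 of 9 (Dusp14) and 12%. The kappaB site was in 1 of 9 (Dusp22) and 3.9%, the E-box in 2 of 9 and 6.02%, and TGANTCA in 0 of 9 and 6.75%. The 9 stretches held 56.4% to 77.6% G and C, against a median of 52.4% over all stretches. The shares were not adjusted for this difference. A match is a description of these letters and not a measured binding site.

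**Figure D1:**
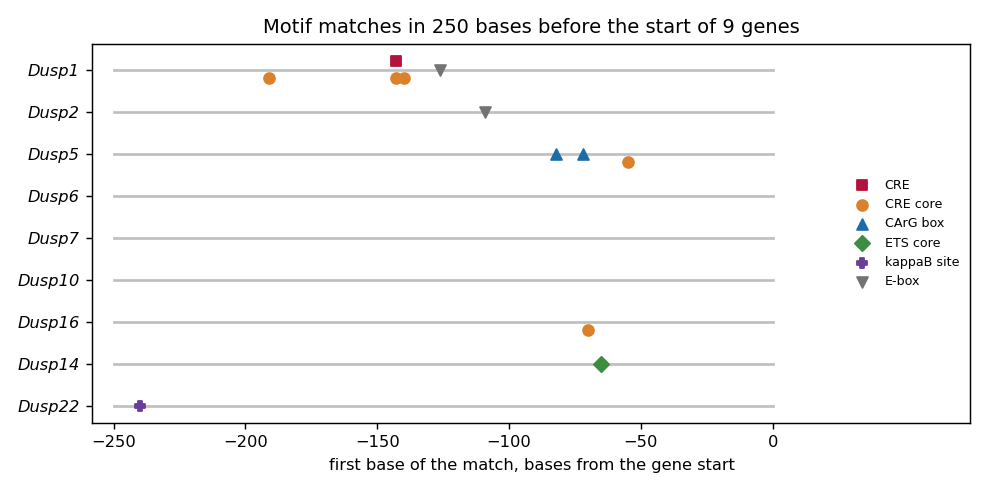
Motif matches in the 250 bases before the RefSeq start of 9 phosphatase genes. The x axis gives the distance of the first matching base from the start in bases, each line is a gene, and each symbol is a match on either strand. The matches nearest to each other are the CRE and its cores in Dusp1 at 143 and 140 bases and the 2 CArG boxes of Dusp5 at 82 and 72 bases.

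The arrays gave log2 levels with medians between 4.25 and 4.31, and with 4 per group their number limits precision. A level is specific to its probe set, so levels of different phosphatases were not compared, and sums over marker lists follow the probe sets with high levels. Across the tested genes the Irak1-/- array of replicate 3 correlated with the others at 0.957 to 0.970, against 0.976 to 0.986 among the other 7. Irak1 itself averaged 6.77 ± 0.33 on the wt and 6.84 ± 0.17 on the Irak1-/- arrays (SD, n = 4), 0.07 apart on the log2 scale (limma adjusted p = 0.953), and as the sources used here do not name the deleted part of the gene, this does not check the genotype. All 7 CD4 T cell markers with a probe set lay above the array median on every array, with differences from -0.12 to 0.06 and none called. Of 16 myeloid markers, 15 were tested and 3 were called higher on the Irak1-/- arrays. These were Lyz2 by 4.16, Tyrobp by 2.47 and Fcer1g by 1.89 on the log2 scale (limma adjusted p = 0.00161 to 0.00176). Of the 15 differences 14 were positive and 1 negative, with a median of 0.72. The negative one was Itgax at -0.59, lower in 4 of 4 pairs, and the smallest positive one was Itgam at 0.05. On the Irak1-/- arrays the summed antilog level of the list was 1244 to 2210 against 741 to 859 in wt. Ctss, at a mean of 8.57 in wt and 8.99 in Irak1-/- arrays, had the highest mean level of this list in each group. The 9 markers of CD8 T cells, NK cells and ILCs summed to 877 to 1042 against 1193 to 1427 in wt, none called, and Klrd1, at a mean of 9.90 in wt and 9.34 in Irak1-/- arrays, made up most of these sums. Of the 9 differences, from -0.66 to 0.58, 5 were negative and 4 positive. At a limma unadjusted p under 0.05 there were 4 lower and 1 higher, beside 6.7% of all tested genes and 3.82% lower. The median of -0.05 ran from -0.12 to -0.04 with each replicate left out. It was -0.32 in an unpaired fit without the Irak1-/- array of replicate 3. With the filter at the 60th percentile, which kept 5 of these markers, it was -0.51. The 7 B cell markers summed to 242 to 429 against 242 to 366, and the 10 epithelial and stromal markers to 265 to 328 against 291 to 321, again with none called. Ighm, at a mean of 7.67 in wt and 7.86 in Irak1-/- arrays, had the highest mean level of the B cell markers. By the labels the sorted cells were over 99.5% pure. The part of other cells' RNA in the phosphatase levels was not tested, and in such bulk samples fewer cells of a type and less RNA per cell cannot be told apart.

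None of the 9 tested phosphatases differed between Irak1-/- and wt cells at a Benjamini-Hochberg adjusted p under 0.05 (limma, batch as a block). At the same threshold 10 of 13308 genes, or 0.0751%, were called. The log2 differences ran from -0.30 for Dusp5 to 0.16 for Dusp6, 5 were negative and 4 positive, and adjusted p lay between 0.739 and 0.978. At an unadjusted p under 0.05 there was 1 of 9, Dusp5, against 6.7% of all tested genes, or 3.82% counting lower levels alone. The median difference of the 9 was -0.06, beside -0.03 over all tested genes, of which 41.9% had a positive difference. The 95% confidence intervals of the 9 genes, by their kept probe sets, lay between -0.59 and 0.42. None of these reached below a 0.663-fold or above a 1.34-fold level. The interval of the second Dusp6 probe set reached up to 1.59-fold. That of Dusp16, in a fit without the level filter, reached down to 0.638-fold. These intervals do not show that the genotypes are alike.

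**Figure D2:**
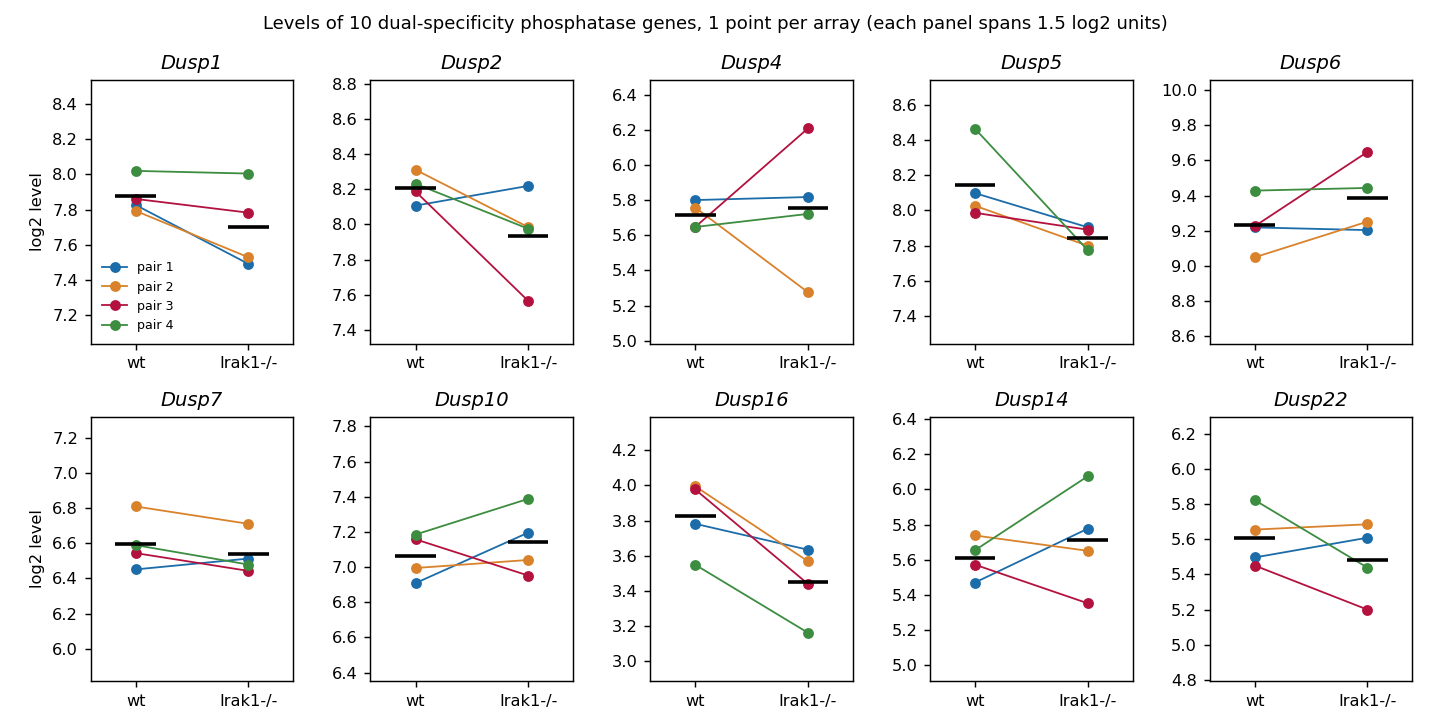
Log2 level (y axis) of the 10 phosphatase genes in wt and Irak1-/- arrays (x axis), 1 panel per gene. Each point is an array, lines join the arrays of a pair, and black bars are group means (n = 4). For Dusp5 the Irak1-/- arrays, at 7.77 to 7.90, all sit under the wt arrays, at 7.99 to 8.46, while the groups overlap for the other 9 genes.

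Among the nuclear, signal-induced phosphatases, Dusp5 was the member whose groups did not overlap, although it did not pass the test. DUSP5 is specific for ERK and anchors it in the nucleus. Its wt levels were 8.10, 8.03, 7.99 and 8.46 in replicates 1 to 4, and its Irak1-/- levels were 7.90, 7.80, 7.89 and 7.77. The highest value is the wt array of replicate 4, and the groups did not overlap, as was the case for 3.04% of all tested genes (1.86% with the Irak1-/- arrays lower). The difference was -0.30 (SE 0.13, 95% confidence interval -0.59 to -0.01, limma unadjusted p = 0.0438, adjusted p = 0.739), a 0.811-fold level, and was negative in 4 of 4 pairs. Pair 4 held the largest difference, -0.69, and without replicate 4 the value was -0.17 (adjusted p = 0.956).

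Dusp1 encodes the phosphatase that glucocorticoids and stress induce and that acts on p38 and JNK above all. It read 7.83, 7.79, 7.86 and 8.02 in wt and 7.49, 7.53, 7.78 and 8.01 in Irak1-/- arrays. The Irak1-/- arrays of replicates 1 and 2 were the lowest, the groups overlapped, and the level was lower in 4 of 4 pairs, where all pairs went the same way for 14.2% of all tested genes and lower for 8.91%. The difference was -0.17 (SE 0.11, interval -0.43 to 0.08, adjusted p = 0.864). Pairs 1 and 2 gave -0.33 and -0.26, while pairs 3 and 4 gave -0.08 and -0.02.

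Dusp2, also called PAC-1, is a phosphatase of activated lymphocytes. Levels were 8.11, 8.31, 8.19 and 8.23 in wt and 8.22, 7.98, 7.57 and 7.98 in Irak1-/- arrays. The Irak1-/- array of replicate 3 was the lowest of all, and that of replicate 1 lay within the wt range. The difference was -0.27 (SE 0.13, interval -0.58 to 0.03, adjusted p = 0.792), with lower levels in 3 of 4 pairs. Without replicate 3 it was -0.16 (adjusted p = 0.911), and without replicate 1 it was -0.40 (unadjusted p = 0.0203, adjusted p = 0.665).

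Dusp4 encodes a nuclear phosphatase of ERK and JNK. Wt levels were close together, at 5.80, 5.76, 5.65 and 5.65, and Irak1-/- levels were spread on either side of them, at 5.82, 5.28, 6.21 and 5.72. The difference was 0.04 (SE 0.16, interval -0.32 to 0.41, adjusted p = 0.978). Pair 2 gave -0.48 and pair 3 gave 0.56, and the difference was 0.22 without replicate 2 (adjusted p = 0.927) and -0.13 without replicate 3 (adjusted p = 0.941).

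**Figure D3:**
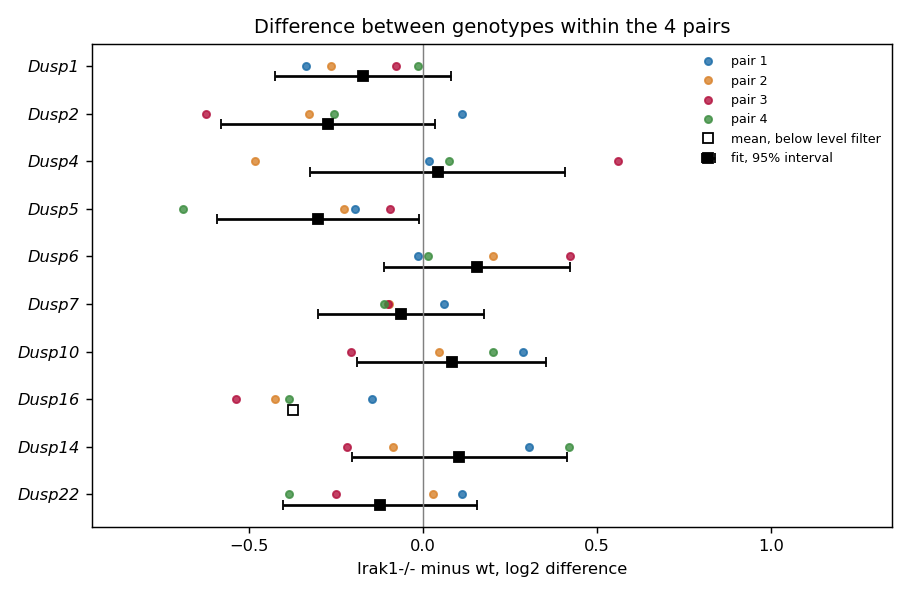
Log2 difference, Irak1-/- minus wt (x axis), of each phosphatase gene (y axis). Coloured points are the 4 pairs, black squares are fitted differences with 95% confidence intervals, and the open square of Dusp16 is the mean of the pairs, without an interval because the gene lay under the level filter. All 4 pairs lie below 0 for Dusp1, Dusp5 and the untested Dusp16, or 2 of the 9 tested phosphatases, beside 8.91% of all tested genes. Of the 9 fitted intervals that of Dusp5 alone ends below 0, at -0.01.

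The cytoplasmic ERK phosphatases were not called, and their groups overlapped. DUSP6 binds ERK, is made in response to it, and holds it outside the nucleus. Its brighter probe set, 17547559, read 9.22, 9.05, 9.23 and 9.43 in wt and 9.20, 9.25, 9.65 and 9.44 in Irak1-/- arrays. The highest was the Irak1-/- array of replicate 3, and the difference of 0.16 (SE 0.12, interval -0.11 to 0.42, adjusted p = 0.893) was 0.07 without replicate 3 (adjusted p = 0.973). The second Dusp6 probe set, 17236882, read 7.18, 7.86, 7.72 and 7.34 in wt and 7.71, 7.55, 8.21 and 7.84 in Irak1-/- arrays. Its difference was 0.30 (SE 0.16, interval -0.06 to 0.67, adjusted p = 0.813), larger than that of the first by over 1.5 times, and 3 of 4 pairs were higher. The probe sets differed in which pair went down, pair 1 for the first (-0.02) and pair 2 for the second (-0.31). Dusp7, a close relative of Dusp6, read 6.45, 6.81, 6.54 and 6.59 in wt and 6.51, 6.71, 6.44 and 6.48 in Irak1-/- arrays. Replicate 2 was the highest in each group, and the difference was -0.06 (SE 0.10, interval -0.30 to 0.18, adjusted p = 0.952), or -0.10 without replicate 1 (adjusted p = 0.901).

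The phosphatases of JNK and p38 went different ways, and neither was called. DUSP10, known as MKP-5, restrains JNK in T cells. Dusp10 read 6.91, 6.99, 7.16 and 7.19 in wt and 7.20, 7.04, 6.95 and 7.39 in Irak1-/- arrays, with overlapping groups and a higher Irak1-/- level in 3 of 4 pairs. The difference was 0.08 (SE 0.12, interval -0.19 to 0.36, adjusted p = 0.948). It was 0.01, 0.18 and 0.04 without replicates 1, 3 and 4 (adjusted p = 0.989, 0.881 and 0.992). Dusp16, which encodes MKP-7, read 3.78, 3.99, 3.98 and 3.55 in wt and 3.63, 3.57, 3.44 and 3.16 in Irak1-/- arrays. Every one of these levels lay under the median of its array, and the sources used here do not say how far such levels stand above background. The mean difference was -0.37, negative in 4 of 4 pairs, while the groups overlapped through the wt array of replicate 4. It was not tested because of the level filter. In a fit without that filter the interval was -0.65 to -0.10 (unadjusted p = 0.0135, limma adjusted p = 0.732).

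The atypical members were mixed between pairs. DUSP14 dephosphorylates TAB1 and holds back T cell receptor signals. Dusp14 read 5.47, 5.74, 5.57 and 5.65 in wt and 5.78, 5.65, 5.35 and 6.07 in Irak1-/- arrays. Pairs 1 and 4 were higher and pairs 2 and 3 lower in Irak1-/- cells, and the difference was 0.10 (SE 0.14, interval -0.20 to 0.41, adjusted p = 0.945). Without replicates 1 to 4 in turn it came to 0.04, 0.17, 0.21 and -0.00017. DUSP22, also called JKAP, inactivates the kinase LCK. Dusp22 read 5.50, 5.65, 5.45 and 5.82 in wt and 5.61, 5.68, 5.20 and 5.44 in Irak1-/- arrays, with overlapping groups, 2 pairs higher and 2 lower. The difference was -0.12 (SE 0.12, interval -0.40 to 0.16, adjusted p = 0.923). It was -0.20 without replicate 1, -0.08 without replicate 3 and -0.04 without replicate 4 (adjusted p = 0.836 to 0.992).

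The Irak1-/- array of replicate 3 lay outside the range of the other 7 arrays for 6 of the 10 phosphatases, against 45.1% of all tested genes. It was above them for Dusp4 and Dusp6 and below them for Dusp2, Dusp7, Dusp14 and Dusp22. In pair 3 the myeloid markers had a mean difference of 1.13, beside 0.67, 1.06 and 1.20 in pairs 1, 2 and 4. The median difference of the 9 phosphatases was 0.06, -0.10, -0.10 and -0.02 in pairs 1 to 4. Over all 8 arrays the standard deviation of a phosphatase ran from 0.13 for Dusp7 to 0.28 for Dusp16, with a median of 0.21, beside a median of 0.20 over all tested genes.

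The phosphatases varied in different ways over the arrays. Over the 8 arrays, which share recipients within pairs, the 45 correlations between members ran from -0.81 to 0.83 with a median of 0.08, and 25 were positive. Dusp10 and Dusp14 were the most alike (Pearson r = 0.83, or 0.80 over the 7 arrays without Irak1-/- replicate 3). Dusp2 and Dusp22 followed with r = 0.76, which was 0.37 without that array. Dusp2 and Dusp6 were the most opposed (r = -0.81, or -0.52 without it), and Dusp6 and Dusp16 had r = -0.75 (-0.82 without it). Dusp1 and Dusp5 had r = 0.48, and Dusp2 had 0.45 with Dusp5 and 0.03 with Dusp1. The probe sets of Dusp6 correlated with each other at 0.38, and at -0.22 without that array. With 8 arrays such values are descriptions of these arrays alone.

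**Figure D4:**
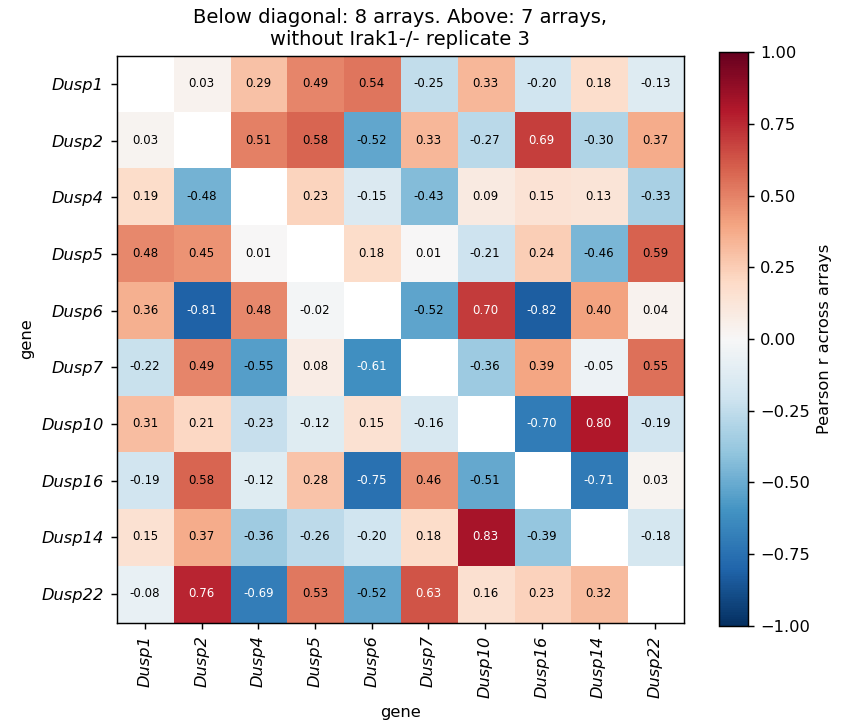
Pearson correlation of log2 levels between the 10 phosphatase genes, which label both axes, with colour and printed value giving r. Squares below the diagonal use 8 arrays and squares above it use 7, without the Irak1-/- array of replicate 3. Dusp10 with Dusp14 stays near 0.8 on both sides (0.83 and 0.80), while Dusp2 with Dusp22 goes from 0.76 to 0.37.

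The tested genes most like each phosphatase over the 8 arrays were picked by the highest Pearson r. Mir5110 (r = 0.96) and Clip2 (0.95) were nearest to Dusp1, Ildr1 (0.98) and Patz1 (0.97) to Dusp2, and Atp11a (0.98) and Itm2a (0.98) to Dusp4. Dennd2a (0.97) and G6pc3 (0.95) were nearest to Dusp5, 2510002D24Rik (0.98) and Chd6 (0.98) to Dusp6, and Ankrd44 (0.95) and Rinl (0.94) to Dusp7. H2-Oa (0.97) and Armh3 (0.92) were nearest to Dusp10, Braf (0.96) and Slc35g1 (0.96) to Dusp16, Cops8 (0.98) and Ddx51 (0.96) to Dusp14, and Zfp157 (0.97) and Sfswap (0.96) to Dusp22. Without the 2 arrays farthest from each phosphatase's median, these r ranged from 0.73 (Clip2 with Dusp1) to 0.97 (Braf with Dusp16). The genes had been picked for high r on the same arrays, among 13308 tested, so these values are no independent check of likeness. The number of tested genes with r over 0.9 differed widely, from 5 for Dusp10 to 156 for Dusp2.

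Related genes were read off the same fit. Of the 14 other dual-specificity phosphatases tested, none was called, 11 had negative and 3 positive differences, and the median was -0.08. At an unadjusted p under 0.05 there was 1 of the 14, beside the 6.7% of all tested genes. That gene, Ssh3, a slingshot phosphatase that acts on cofilin, read 5.29, 5.60, 5.35 and 5.55 in wt and 5.21, 5.11, 4.60 and 5.06 in Irak1-/- arrays. Its groups did not overlap, as for 3.04% of all tested genes, and the difference was -0.46 (SE 0.13, adjusted p = 0.476). Dusp27 had -0.36, Dusp8, a phosphatase of JNK and p38, -0.18, and Dusp26 -0.11, with adjusted p between 0.782 and 0.931. These levels were low: Dusp27 lay above the array median on 6 of 8 arrays, Dusp8 on 1 and Dusp26 on 0. With the filter at the 60th percentile, which kept 6 of the 14 genes, the median of the list was again -0.08. Of 6 other MAP kinase phosphatases none was called, 5 differences were negative and the median was -0.09, or -0.02 without replicate 1 and -0.05 without replicate 3. Among them Ppp2cb and Ppp2ca, catalytic subunits of PP2A, had -0.15 and -0.23, Ppm1d -0.09 and Ptpn7, a tyrosine phosphatase of ERK in lymphocytes, 0.11. Ppp2cb and Ppp2ca were each higher in 2 of 4 pairs, and pair 3 gave -0.56 and -1.07.

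The kinases that these phosphatases oppose were not called either. Of 15 tested ERK pathway genes, 10 had negative and 5 positive differences, with a median of -0.13, which was -0.08 without replicate 2 and -0.05 without replicate 3. An unadjusted p under 0.05 was found for 2 of the 15, beside 6.7% of all tested genes (3.82% lower). These were Map3k8, a kinase that feeds signals of Toll-like and TNF receptors into ERK, at -0.29 (SE 0.12, adjusted p = 0.708) and Braf at -0.25 (SE 0.11, adjusted p = 0.741), each lower in 4 of 4 pairs. Nras had -0.27 and Lamtor3, an ERK scaffold, -0.21. Nras was higher in 2 of 4 pairs and Lamtor3 lower in 4 of 4, and pair 3 gave -0.82 and -0.52. Of 24 tested JNK and p38 pathway genes, 17 differences were negative and 7 positive, with a median of -0.09, which was -0.15, -0.03 and -0.05 without replicates 1, 2 and 3. An unadjusted p under 0.05 was found for 1 of the 24, a share below the 6.7% of all tested genes. That gene, Mapk8, which encodes JNK1, read 5.95, 6.08, 6.29 and 5.80 in wt and 6.27, 6.28, 6.55 and 6.52 in Irak1-/- arrays, higher in 4 of 4 pairs by 0.38 (SE 0.12, adjusted p = 0.580). Mapk9, which encodes JNK2, had -0.29 (adjusted p = 0.763), lower in 4 of 4 pairs. Gadd45b had -0.23 and Map2k4, a kinase that activates JNK, 0.18. Of 14 other inhibitors of Ras and ERK, 9 were negative and 5 positive, with a median of -0.06 (-0.03 without replicate 4), none called. Spred2 had 0.22, Dok1 -0.20, Pebp1 0.40 and Cblb -0.15 (limma adjusted p = 0.792 to 0.884). For Pebp1 pair 3 gave 1.54, where the wt array read 4.51, while pairs 1, 2 and 4 gave 0.33, -0.32 and 0.04.

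Immediate early genes, which respond to the same signals as the induced phosphatases, were not called among 25 tested. Of their differences 17 were negative and 8 positive, and the median was -0.12, or -0.07 without replicate 3. At an unadjusted p under 0.05 there were 4 lower and 1 higher, beside 6.7% of all tested genes and 3.82% lower. Nr4a1, an orphan nuclear receptor gene that follows antigen receptor signals, read 8.31, 8.36, 7.98 and 8.36 in wt and 7.74, 7.21, 7.10 and 7.92 in Irak1-/- arrays. The groups did not overlap and the difference was -0.76 (SE 0.14, adjusted p = 0.162). Ier3 had -0.50 (adjusted p = 0.335) and Ier2 -0.40 (adjusted p = 0.472), each lower in 4 of 4 pairs, while Phlda1, chosen after its value was seen, had -0.41. Egr3, an early transcription factor gene, had 0.37 (adjusted p = 0.580), higher in 4 of 4 pairs. For Ier3, Ier2 and Egr3, as for Nr4a1, the wt and Irak1-/- levels did not overlap, which was so for 3.04% of all tested genes. On the same arrays most myeloid markers were higher as given above, and the part of that RNA in these values was not tested. Of 8 glucocorticoid-induced genes, a class that also includes Dusp1, 4 differences were positive and 4 negative, with none called and a median of -0.01 (from -0.04 without replicate 3 to 0.03 without replicate 4). Fkbp5, Sgk1, Tsc22d3 and Ddit4 had differences of 0.23, -0.16, -0.13 and 0.16. Of 6 receptor-proximal genes, 3 differences were positive and 3 negative, with none called and a median of -0.01 (-0.04 without replicate 3). Lcp2 had -0.16, Plcg1 0.10, Lat -0.08 and Cd28 0.06.

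**Figure D5:**
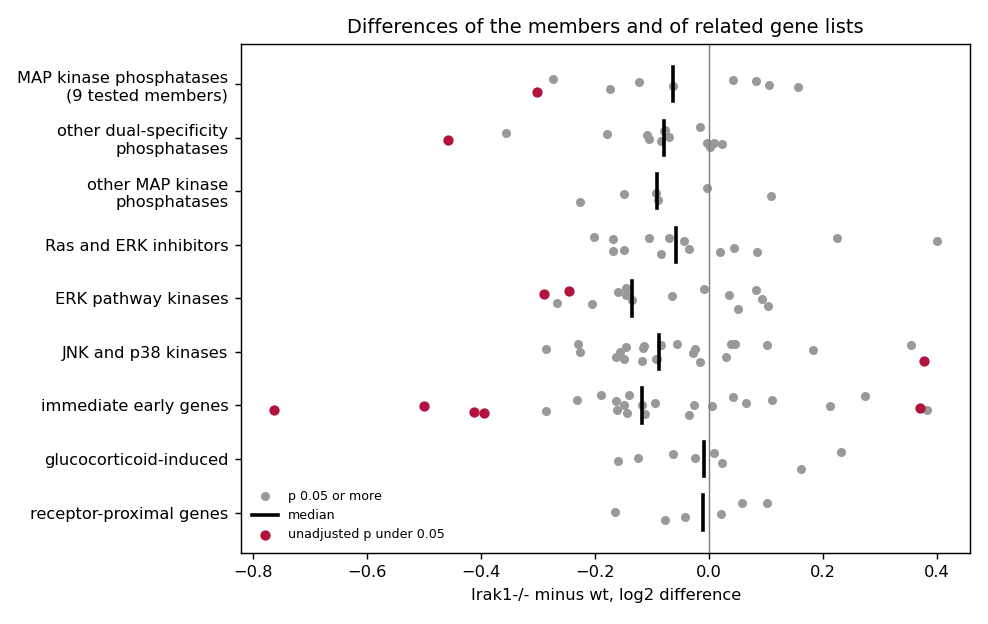
Log2 difference, Irak1-/- minus wt (x axis), of the tested phosphatases and of 8 related gene lists (y axis). Each point is a gene, red points have an unadjusted p under 0.05, and black bars are list medians, with vertical scatter for display. No gene shown passed the adjusted threshold, the phosphatase median is -0.06, and Nr4a1 at -0.76 is the lowest point.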

How the data were processed

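Total RNA of 8 samples was labelled with biotin and hybridized to Affymetrix arrays, per the labels' protocols. What the authors deposited are log2 levels for 41345 probe sets, and the sources used here do not say how background was corrected or how the arrays were summarized and normalized. Each probe set with 1 annotated symbol was used, symbols were updated by gene identifier with the GRCm38.p6 gene table (23328 of 23521 probe sets matched), and the probe set with the highest mean was kept per gene. Genes under the 40th percentile of mean level were left out. The genotype comparison used limma 3.58.1 (lmFit, eBayes; R 4.3.3) on these log2 levels with the batch label as a block, two-sided, with p-values adjusted by Benjamini-Hochberg over all 13308 tested genes, and a difference is Irak1-/- minus wt. The pairing comes from the labels, since both arrays of a batch come from the same pooled recipients; deviations from the group means correlated at 0.0799 to 0.2 within pairs. The procedure was tested on simulated arrays.

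The 10 genes, the related lists and the named genes were chosen with earlier results of these data known. All 10 phosphatases are described, and of each related list the 4 genes with the smallest p and for each phosphatase the 2 genes with the highest r. Alternatives changed the block, the normalization, the level filter, the use of probe sets, the variance model and the samples, adjusted for mean myeloid marker level, and, chosen after seeing the data, took the second Dusp6 probe set.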

Additional observations from a re-analysis of the deposited data

Results flagged for a closer look

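In 90 groups of 4 arrays, covering the phosphatases, the related genes named in the text, Irak1 and Ptprc, a single array was far from the other 3 in 5 groups, by a gap that took up more of the group's range than Dixon's 95% limit allows. Chance gives about 1 in 20 such groups. No group of a phosphatase was among them. Ptprc read 11.01 in wt replicate 3 and 10.84 to 10.87 in the other wt arrays. Cblb read 8.88 in Irak1-/- replicate 2 and 9.10 to 9.14 in the others. Ppp2ca read 7.40 in Irak1-/- replicate 3 and 8.28 to 8.41 in the others. Nr4a1 read 7.98 in wt replicate 3 and 8.31 to 8.36 in the others. Plcg1 read 7.34 in wt replicate 1 and 7.64 to 7.70 in the others.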

How the results depend on the processing

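No phosphatase was called under any of 15 alternatives or with the second Dusp6 probe set, and the lowest adjusted p among them was 0.665. Without the replicate block no call of a phosphatase changed, and Dusp5 had an unadjusted p of 0.0317 (adjusted p = 0.963). The limma unadjusted p of Dusp5 was under 0.05 in 10 fits, the main one included. It was 0.0527 after the levels were quantile normalized and 0.0547 when genes of every level were tested. Leaving out replicates 1, 2 and 4 in turn gave 0.0639, 0.0800 and 0.229, and the myeloid marker covariate gave 0.780. Where it was over 0.05 the interval of Dusp5 reached above 0. The covariate of mean myeloid marker level nearly follows genotype and widened the intervals (for Dusp5 the upper bound went to 1.73). Under it differences turned for Dusp2 (0.75), Dusp4 (-0.24), Dusp5 (0.19), Dusp6 (-0.23), Dusp7 (0.28) and Dusp22 (0.69), the median of the phosphatases was 0.28, and 0 genes were called higher, 0 lower and 0 myeloid markers. Dusp4 also turned without replicate 3 (-0.13) and in an unpaired fit lacking only that Irak1-/- array (-0.11), and Dusp14 without replicate 4 (-0.00017). With each replicate left out in turn Dusp4 ran from -0.13 to 0.22 and Dusp14 from -0.00017 to 0.21. The median over the phosphatases ran from -0.10 (without replicate 1) to -0.04 (without replicate 4). Over all genes, 9 were called higher and 1 lower. The counts were 14 and 2 with a random replicate block, 14 and 2 with median centring, 12 and 2 with the filter at the 60th percentile, and 13 and 3 with trend and robust settings. Leaving out each replicate gave 6 (replicate 2) to 16 (replicate 1) higher and 1 lower. The cause of these changes was not tested. The intervals of the 9 tested phosphatases, not adjusted for the number of genes, reached 0.24 to 0.37 to either side of a difference. With 4 arrays per group, smaller differences could not be told from 0 even at an unadjusted p under 0.05. The adjusted threshold used for calls was stricter, so these widths do not give the smallest difference that could be called. Nr4a1 at -0.76 (limma adjusted p = 0.162) and Ier3 at -0.50 (limma adjusted p = 0.335) were not called.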

Other observations

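Levels of the phosphatases varied more between Irak1-/- arrays than between wt arrays for 8 of the 10 genes, judged by the standard deviation, against 59.0% of all tested genes. Dusp4 had 0.38 in Irak1-/- and 0.08 in wt arrays, Dusp2 0.27 and 0.09, Dusp14 0.30 and 0.11, and Dusp1 0.24 and 0.10, while Dusp5 had 0.06 and 0.22 the other way round. With pair 3 left out the count was 6 of 10, against 47.4% of all tested genes. The difference in spread was not tested.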
